A study of Sorghum bicolor with 12 samples.

Results

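The response of the grain sorghum cultivar BTX623 to 2 h in 5% sucrose solution was examined on 4 of the 12 arrays of the series, the 2 arrays at 2 h and the 2 arrays at 0 h. The arrays were chosen by cultivar and time, and each 2 h array was set against the 0 h array with the same repeat number (I or II). The seedlings were 14 days old, had been raised in a greenhouse under natural light and temperature, and were collected whole after 2 h in the solution or at 0 h. The other 8 arrays came from BTX623 at 6 h and from the sweet sorghum cultivar Keller at 0 h, 2 h and 6 h, again with 2 arrays in each group, and the repeats came from separate plantings. No array of seedlings kept for 2 h in a solution free of sucrose was used here, so sucrose, the time of day and handling cannot be told apart in any change below. In RNA of whole seedlings, fewer cells of a type and less RNA per cell cannot be told apart either.

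Sucrose is both the main transported sugar of a plant and a signal to which many genes respond, among them transporters, enzymes of sugar metabolism and several families of transcription factors. The DREB1/CBF proteins belong to the AP2-EREBP family and bind the dehydration-responsive element in promoters of cold and drought genes, as known best from Arabidopsis. Heat shock factors (HSF) bind heat shock elements, and WRKY and bHLH proteins are large plant families with many roles.

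Each array held 41977 probes, of which 29515 were well above background, by the flag of the scanner software, on both arrays at 2 h or on both at 0 h. Of the probes tested, 26439 stood for gene loci and 3076 for ESTs (expressed sequence tags), and 7541 (25.5%) had an annotation in the gene lists used here. Values below are the relative signal, which is the processed signal of a probe divided by the 75th percentile of its array, so that 1 equals that percentile. Levels of different probes cannot be compared on this scale. The 75th percentile ranged from 378 to 627 and the number of probes well above background from 28319 to 31099 on the 4 arrays. The lowest number belonged to repeat II at 2 h. Leaf markers were well above background on all 4 arrays for 7 of 8 probes, with summed relative signals of 1270 and 1580 at 2 h and 1910 and 1560 at 0 h, and 0 of the 7 tested was called. Such sums weigh the brightest probes most. The chlorophyll a/b-binding probe of Sb03g027030 alone had 484 and 569 at 2 h and 776 and 584 at 0 h. Root markers were well above background on all 4 arrays for 4 of 4 probes, with sums of 9.69 and 10.4 at 2 h and 9.30 and 10.4 at 0 h, and 0 was called. The 3 probes for kafirins, the storage proteins of the grain, were not well above background on any of the 4 arrays.

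After 2 h in sucrose, 319 probes were higher and 475 probes lower than at 0 h in BTX623. A call needed a change of 2-fold or more and a limma p below 0.05 after Benjamini-Hochberg adjustment, from a fit with the repeat number as a block and the spread estimated over all 12 arrays. The calls were 1.08% (higher) and 1.61% (lower) of the probes tested. The called rises had a median log2 change of 1.51 and the called falls one of -1.75. Changes of at least 4-fold were more often falls, with 173 lower and 67 higher probes, and 8-fold was reached by 35 lower and 15 higher probes. The probes called higher stood for 265 loci and 43 ESTs and the probes called lower for 420 loci and 37 ESTs. Most of them have no known role here, since 98 of the higher and 174 of the lower probes were annotated, and 42 and 78 of these only as uncharacterized, expressed or predicted proteins.

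The calls favour probes whose pairs changed alike, so the values in each pair are a description. The median change of the called rises was 1.49 in pair I and 1.49 in pair II, and that of the called falls was -1.76 and -1.69. Both 2 h arrays lay above both 0 h arrays for 308 of the 319 probes called higher (20.5% of all probes tested), and below both for 465 of the 475 called lower (20.2% of all). In pair I the 2 h array lay on slide 2 and the 0 h array on slide 1, whereas both arrays of pair II lay on slide 3. Within slide 3, 285 of the called rises and 445 of the called falls reached 2-fold, against 6.45% of all probes higher and 7.66% lower by this much, and these values also entered the calls. With no test at all, 494 probes were higher (1.67%) and 913 lower (3.09%) by 2-fold or more in both pairs. Over the 29426 probes measured on the 4 arrays, the correlation of the 2 pair differences was 0.382, which is a description across probes that are not independent of each other.

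**Figure D1:**
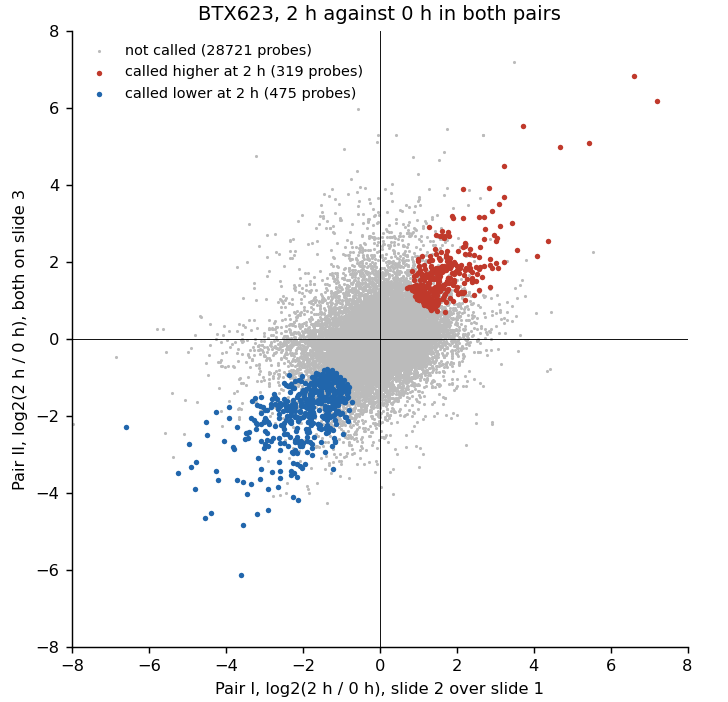
Log2 ratio of 2 h over 0 h in BTX623 for each probe tested, with pair I on the x axis and pair II on the y axis; red points are the 319 probes called higher, blue points the 475 called lower and grey points all others. The called probes lie along the diagonal in both directions, at median changes of 1.49 in each pair for the rises and of -1.76 and -1.69 for the falls.

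The calls rest on the pairing and on the arrays of the other groups, which were used to estimate the spread. With no replicate block, 21 probes were called higher and 37 lower, and when only the 4 arrays were fitted, or when slide and repeat number were both blocks (chosen after the data were seen), 0 were called, while 2554 and 2274 probes passed an unadjusted p of 0.05 and 2-fold.

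The largest called rises were those of Sb02g040060 on chromosome 2 and Sb03g025520 on chromosome 3, both without annotation here. Sb02g040060 had relative signals of 207 and 23.6 at 2 h, against 2.11 and 0.206 at 0 h. Its log2 change was 6.73 (SE 0.57, limma adjusted p = 0.0031), about 106-fold. Repeat I was far higher than repeat II at both times, and the groups did not overlap. Sb03g025520 had 42.3 and 2.55 at 2 h, against 0.286 and 0.0347 at 0 h (log2 change 6.70, SE 0.58, adjusted p = 0.0035). At 6 h, on arrays that are compared with the same 0 h arrays, their relative signals were 529 and 174 for Sb02g040060 and 155 and 26.6 for Sb03g025520. The qRT-PCR primers of both loci are shown because they overlap in sequence, and capitals mark the run of bases that the primers of both loci have in common.
Sb02g040060 forward: aGCCTCCTCAAGTCCTCCTT
Sb03g025520 forward: GCCTCCTCAAGTCCTCCTTc
Sb02g040060 reverse: ggaaggacGTCAGGTCGTAG
Sb03g025520 reverse: GTCAGGTCGTAGggagggtt
The forward primers share a run of 19 bases and the reverse primers one of 12. Whether the array probes of these loci also take up each other's transcript was not tested.

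**Figure D2:**
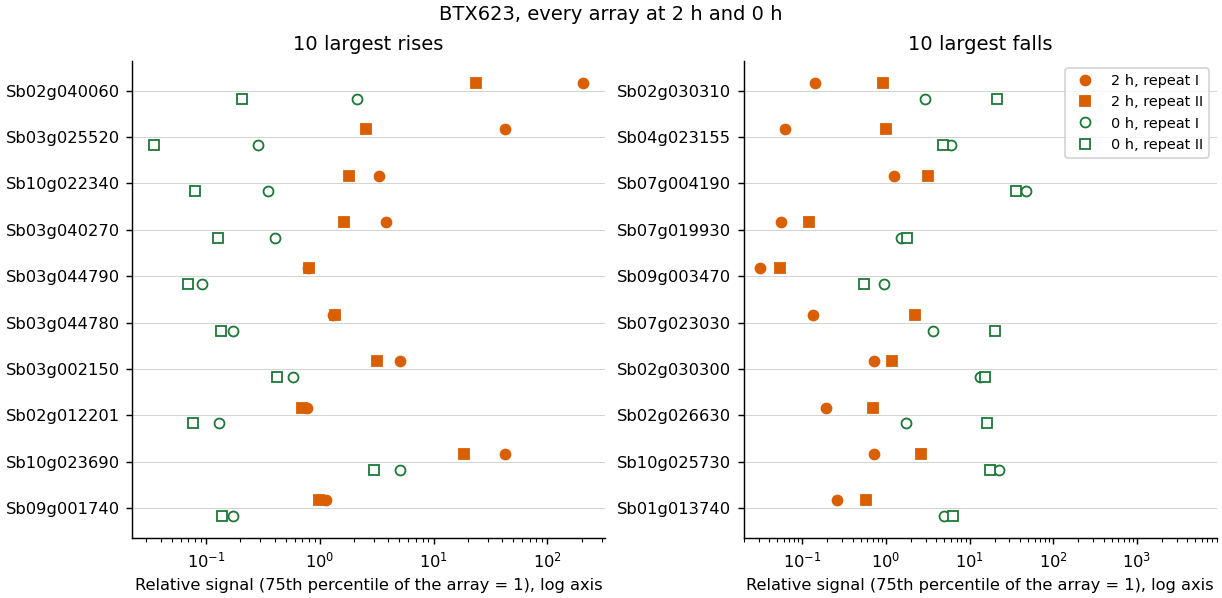
Relative signal on a log axis for the 10 loci with the largest called rise (left panel) and the 10 with the largest called fall (right panel), among loci well above background on all 4 arrays; filled orange marks are the 2 h arrays, open green marks the 0 h arrays, circles repeat I and squares repeat II. Sb02g040060 lies at 207 and 23.6 at 2 h and at 2.11 and 0.206 at 0 h, and in each row the 2 filled marks lie on one side of the 2 open marks, which the choice of these loci required.

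Potassium transporters, which move the main cation of plant cells across membranes, had several rises. Of 10 probes tested, 3 were called higher and 0 lower, against 1.08% and 1.61% of all probes. The median log2 change of the 10 was 0.87, against 0.00 over all probes tested, and was 0.43 under normexp, another background correction, and 1.17 without scaling, with 3 called higher in each. Sb03g044790, similar to a potassium transporter, had relative signals of 0.783 and 0.805 at 2 h, against 0.0920 and 0.0702 at 0 h. The log2 change was 3.30 (SE 0.22, adjusted p = 0.0026), with little spread between repeats at either time. Its neighbour Sb03g044780, with the same annotation, had 1.31 and 1.36 at 2 h, against 0.174 and 0.136 at 0 h (log2 change 3.12, SE 0.20, adjusted p = 0.0026). Whether the probes of these 2 loci take up each other's transcripts was not tested. Both loci lie on the plus strand of chromosome 3, from 72136141 to 72140648 (Sb03g044780) and from 72144413 to 72149281 (Sb03g044790), in coordinates of the gene lists of the study, which name no build. Sb06g014930, similar to a high-affinity potassium transporter, which takes up the ion at low supply, had 2.67 and 1.85 at 2 h, against 0.904 and 0.595 at 0 h (log2 change 1.60, SE 0.19, adjusted p = 0.0077). The other 7 probes of the list had changes from -0.70 to 0.98, and the smallest adjusted p among them was 0.222. At 6 h the relative signal of Sb03g044790 was 0.784 and 0.639 and that of Sb03g044780 1.40 and 1.09, close to the values at 2 h.

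Among other rises, 2 of 24 HSF probes were called higher and 0 lower, against 1.08% and 1.61% of all probes. Sb10g022340, an HSF locus on chromosome 10, had relative signals of 3.33 and 1.79 at 2 h, against 0.354 and 0.0797 at 0 h (log2 change 3.86, SE 0.50, adjusted p = 0.012). Sb04g008300, another HSF locus, changed by 2.10 (SE 0.43, adjusted p = 0.044), with 1.29 in pair I and 2.90 in pair II, and the number of HSF probes called higher was 1 under quantile normalization or normexp and 3 without scaling. Of 37 probes for heat shock proteins and chaperones, taken without HSF loci, 0 were called, with changes from -1.01 to 1.60 and a smallest adjusted p of 0.0902. Sb03g002150, similar to GA 2-oxidase 5, an enzyme that inactivates gibberellins, had 5.03 and 3.21 at 2 h, against 0.580 and 0.419 at 0 h (log2 change 3.03, SE 0.26, adjusted p = 0.0031). Sb03g040270, similar to a peroxidase, had 3.79 and 1.64 at 2 h, against 0.408 and 0.127 at 0 h (log2 change 3.45, SE 0.24, adjusted p = 0.0026). Peroxidases and glutathione transferases as a list moved in both directions, with 2 higher and 2 lower of 76 probes, and Sb02g042850, a further peroxidase, rose by 2.08 (SE 0.31).

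The remaining loci with the largest rises had no annotation here. Sb10g023690 had relative signals of 42.1 and 18.5 at 2 h, against 5.04 and 3.01 at 0 h (log2 change 2.84, SE 0.22, adjusted p = 0.0026). Sb02g012201 rose by 2.89 (SE 0.33) and Sb09g001740 by 2.79 (SE 0.38). Sb08g000770, similar to the rice receptor kinase XA26 of bacterial blight resistance, rose by 2.78 (SE 0.27). Transporters and enzymes in neighbouring positions also rose, a choice made after the values were seen. Sb04g007260 and Sb04g007270, both similar to a pleiotropic drug resistance protein, which is an ABC transporter, changed by 1.94 (SE 0.22) and 1.96 (SE 0.21). Sb03g006460 and Sb03g006470, both similar to cytochrome P450 enzymes, changed by 2.50 (SE 0.44) and 2.46 (SE 0.43). Each of these 4 loci had an adjusted p under 0.05 with limma. In each, both 2 h arrays lay above both 0 h arrays, as in 308 of the 319 called rises and in 20.5% of all probes tested.

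Some loci went between signals below and above background. Among the called rises, 15 probes were not well above background on either 0 h array, and among the called falls 17 were not on either 2 h array. For these a lower bound of the fold change is given, which takes for each array the larger of the probe's own signal and the lowest signal that was well above background there. Sb05g005370, an uncharacterized locus, had 0.697 and 0.3 at 2 h, against 0.0160 and 0.00879 at 0 h, and was at least 22.6-fold higher (adjusted p = 0.0026). Sb07g027795, similar to an N-acetyltransferase, was at least 6.08-fold higher at 2 h, and the loci Sb02g034610, Sb03g008140 and Sb09g002750 at least 4.79-fold, 4.67-fold and 3-fold higher. In the other direction Sb04g021260 was at least 5.73-fold lower, at 0.0188 and 0.0269 at 2 h, against 0.138 and 0.124 at 0 h. Sb02g001160, Sb05g013390, Sb10g030660 and Sb09g000760 were at least 4.76-fold, 3.75-fold, 3.45-fold and 3.31-fold lower. Under normexp on median signals, chosen after the data were seen, 9 of these 10 loci were not called, with log2 changes from -0.93 to 0.68. Only Sb05g005370 was called, and its log2 change of 1.98 was also under its bound. This correction added an offset of 50 to the signals, whereas the lowest signals well above background were 8.52 to 15.1 on the 4 arrays. The offset shrinks the changes of dim probes, so these values cannot test the bounds. Sb05g005370 was also the only 1 of the 10 called with every array left out in turn. A further 8 called rises and 16 called falls were well above background on 1 of the 2 arrays of the dimmer group. Among them were Sb05g021030 (log2 change 4.84, SE 0.63) and Sb02g031890 (log2 change -4.88, SE 0.80, the largest fall of all called probes), 2 loci singled out after their values were seen.

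The AP2-EREBP family held the largest number of falls among the lists of transcription factors, though not the largest share, which was that of GeBP factors (2 of 14). Of 125 probes tested, 17 (13.6%) were called lower and 2 (1.60%) higher, against 1.61% and 1.08% over all probes tested, while the median change of the family was -0.16, a sign that turned without scaling (0.16, with 14 lower and 3 higher). Of the other transcription factors in the lists held here, 21 of 1123 probes were called lower and 14 higher. The family's calls were split between DREB or CBF loci and other members. Of 14 probes annotated with DREB, CBF or DRE binding, 6 were lower and 1 higher with a median change of -1.86, and of the other 111 members 11 were lower and 1 higher, with a median of -0.06.

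The 5 loci from Sb02g030300 to Sb02g030340, which lie next to each other on the minus strand of chromosome 2 between 65373719 and 65399776, all fell. Sb02g030300, similar to DREB1a, had relative signals of 0.725 and 1.18 at 2 h, against 13.3 and 15.1 at 0 h. The log2 change was -3.93 (SE 0.39, adjusted p = 0.0054), a signal 15.3-fold lower at 2 h. Sb02g030310, similar to a DREB-like protein, had 0.141 and 0.918 at 2 h, against 2.95 and 21.2 at 0 h (log2 change -4.46, SE 0.35, adjusted p = 0.0026), the largest fall among loci well above background on all 4 arrays. The repeats of Sb02g030310 lay far apart at each time, but the pairs changed by similar amounts, -4.38 in pair I and -4.53 in pair II. Sb02g030320, similar to SbCBF6, had 6.70 and 14.1 at 2 h, against 54.3 and 100 at 0 h (log2 change -2.92, SE 0.21, adjusted p = 0.0026). The last 2 loci of the row, Sb02g030330 and Sb02g030340, also similar to SbCBF6, changed by -2.54 (SE 0.20) and -2.35 (SE 0.27) and are named here after their values were seen. Sb05g006275 on chromosome 5, a further locus similar to SbCBF6, had 0.570 and 1.04 at 2 h, against 2.73 and 8.15 at 0 h (log2 change -2.62, SE 0.43, adjusted p = 0.024). Whether the probes of these similar loci take up each other's transcripts was not tested. In none of the 6 did the arrays at 2 h and at 0 h overlap, as in 465 of the 475 called falls and in 20.2% of all probes tested.

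**Figure D3:**
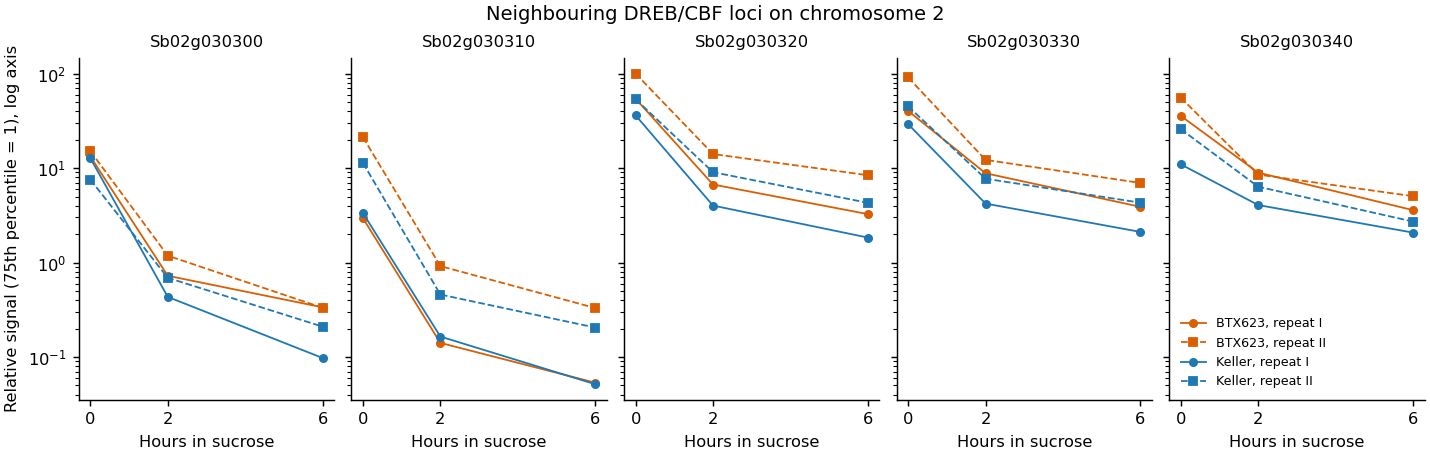
Relative signal on a log axis at 0 h, 2 h and 6 h for the 5 neighbouring DREB/CBF loci of chromosome 2, with 1 line for each cultivar and repeat (orange BTX623, blue Keller, solid lines and circles repeat I, dashed lines and squares repeat II). All lines go down between 0 h and 2 h, in BTX623 to 0.725 and 1.18 for Sb02g030300, against 13.3 and 15.1 at 0 h.

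At 6 h the signals of these loci were lower again, on arrays compared with the same 0 h arrays. Sb02g030300 had 13.3 and 15.1 at 0 h, 0.725 and 1.18 at 2 h and 0.336 and 0.332 at 6 h. The change between 2 h and 6 h, at -1.47, was not past the threshold (adjusted p = 0.12). Sb07g020090, similar to DRE binding factor 1, went the other way from the 6 falls. It had 27.1 and 35.6 at 2 h, against 8.63 and 13.6 at 0 h (log2 change 1.52, SE 0.26, adjusted p = 0.028). The 8 probes of the dehydration and cold list other than DREB or CBF loci, among them late embryogenesis abundant and cold acclimation proteins, had 0 calls and changes from -0.74 to 1.37, and 8 probes are too few to tell this from the share of all probes called (1.08% higher, 1.61% lower).

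Other members of the AP2-EREBP family included Sb07g023030, which had 0.133 and 2.23 at 2 h, against 3.63 and 20.3 at 0 h (log2 change -3.98, SE 0.61, adjusted p = 0.019). Sb02g026630, similar to an ethylene-binding protein, had 0.190 and 0.699 at 2 h, against 1.73 and 16.2 at 0 h (log2 change -3.86, SE 0.50, adjusted p = 0.012). Both loci were several times higher in repeat II than in repeat I at both times. Sb06g024540 changed by -4.20 (SE 0.60, adjusted p = 0.015), and was well above background at 2 h on 1 of 2 arrays. Sb01g044410, an AP2 domain protein, rose by 2.66 (SE 0.44, adjusted p = 0.023).

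Among the bHLH family, 3 of 119 probes were called lower (2.52%) and 1 higher (0.84%), near the 1.61% and 1.08% of all probes tested. Sb07g004190 on chromosome 7 had relative signals of 1.25 and 3.16 at 2 h, against 47.1 and 35.6 at 0 h (log2 change -4.37, SE 0.56, adjusted p = 0.012). Sb01g008570, similar to a helix-loop-helix DNA-binding protein, had 0.782 and 1.47 at 2 h, against 4.74 and 15.8 at 0 h (log2 change -3.01, SE 0.25, adjusted p = 0.0030). WRKY factors were called lower for 4 of 30 probes (13.3%, against 1.61% of all) and higher for 1 (3.33%, against 1.08%). The number called lower was 2 without scaling, 3 under normexp and 4 under quantile normalization, with 1 higher in each. Sb03g038210, weakly similar to WRKY21, had 0.120 and 0.133 at 2 h, against 1.09 and 1.14 at 0 h (log2 change -3.14, SE 0.22, adjusted p = 0.0026), with little spread between repeats. Sb09g002970, weakly similar to WRKY transcription factor 5, was the rise, at 1.47 and 1.29 at 2 h, against 0.248 and 0.292 at 0 h (log2 change 2.36, SE 0.19, adjusted p = 0.0030). The other WRKY loci called lower were Sb02g024760 (-2.85), Sb02g022290 (-1.98) and Sb03g029920 (-1.32), with limma adjusted p of 0.044, 0.012 and 0.043. Of the remaining families, bZIP had 2 higher (2.35%) and 3 lower (3.53%) of 85 probes, against 1.08% and 1.61% of all. Its falls included Sb10g026450, similar to the rice bZIP factor RISBZ5, at -1.93. NAC had 1 higher (1.27%) and 3 lower (3.8%) of 79, including Sb02g006680, similar to the GRAB1 protein, at -1.10. Sb04g008030, weakly similar to a homeobox protein, rose by 1.95 (SE 0.22), and Sb06g032600, similar to the maize response regulator ZmRR2, fell by 1.76 on the log2 scale (SE 0.24).

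Among the hormone lists, 2 of 8 jasmonate probes were lower, both for proteins with a ZIM motif, a motif that the JAZ repressors of jasmonate signalling carry in Arabidopsis. Sb01g023330 had 2.26 and 5.58 at 2 h, against 37.6 and 34.9 at 0 h (log2 change -3.35, SE 0.50, adjusted p = 0.018), and Sb01g045170 had 0.345 and 0.287 at 2 h, against 1.55 and 1.18 at 0 h (log2 change -2.10, SE 0.26, adjusted p = 0.0091). The other 6 probes were for lipoxygenases, an enzyme type of which some members begin jasmonate synthesis. The annotation does not say whether these loci take part in it. The 6 had a median change of 1.51 and were not called, with a smallest limma adjusted p of 0.128. Their differences were up to 0.998 in pair I and 2.88 in pair II. Without scaling of the arrays, 5 of these 6 probes were called higher. The median of the whole list, 1.47, therefore had the opposite sign of its calls. Of 77 auxin probes 1 was lower, Sb02g004670, similar to the auxin-responsive protein IAA24, at -1.29 (SE 0.24). The lists for ethylene, gibberellin and cytokinin, drawn up from words in the annotation, had 0 calls in 18, 8 and 5 probes, against 1.08% higher and 1.61% lower over all probes. These words missed Sb03g002150 (GA 2-oxidase 5) and Sb02g026630 (ethylene-binding protein-like), both called.

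In the carbohydrate metabolism list, 2 of 347 probes were higher and 5 lower (0.576% and 1.44%, against 1.08% and 1.61% of all probes). The median change of the list was 0.00, or 0.32 without scaling, as for all probes, and the changes of probes not called ran from -2.15 to 2.51. Sb10g023850, similar to fructose-bisphosphate aldolase, an enzyme of glycolysis and of the Calvin cycle, had 0.121 and 0.273 at 2 h, against 1.02 and 1.72 at 0 h (log2 change -2.87, SE 0.56, adjusted p = 0.040). Sb03g034640, similar to trehalose-6-phosphate synthase, which makes a sugar phosphate known as a signal of sucrose supply, had 0.656 and 1.57 at 2 h, against 3.16 and 3.72 at 0 h (log2 change -1.76, SE 0.36, adjusted p = 0.043). It was the only one called of 5 probes with this annotation, and the changes of the 5 lay between -1.76 and -0.998, with 0 called without scaling. Sb05g005470, similar to aldehyde dehydrogenase, rose by 1.70 (SE 0.27). Sb04g008720, similar to phosphoenolpyruvate carboxylase 1, rose by 1.20 (SE 0.25, limma adjusted p = 0.048), with 1.69 in pair I and 0.71 in pair II. Sb04g035630, similar to UDP-glucuronic acid 4-epimerase, which supplies sugars for the cell wall, fell by 1.08 on the log2 scale (SE 0.22, limma adjusted p = 0.044). Its changes were -0.91 in pair I and -1.25 in pair II. Sb04g008720 and Sb04g035630 were each called in only 2 of 12 alternative fits, counted without those that left out an array. For sucrose cleavage and synthesis 0 of 9 probes were called, and the 4 for sucrose-phosphate synthases, which make the precursor of sucrose, had changes from -0.35 to -0.15. Starch metabolism and fermentation had 0 calls in 26 and 21 probes, with ranges of -2.37 to 1.12 and -1.22 to 2.51.

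Among sugar transporters, 1 of 7 probes was higher, against 1.08% of all probes, and 7 probes are too few to tell these shares apart. Sb03g041740, similar to MtN3, the family to which the SWEET sugar exporters belong, had 11.3 and 7.12 at 2 h, against 5.38 and 3.38 at 0 h (log2 change 1.07, SE 0.21, adjusted p = 0.041). A second probe of this locus had the change 1.0 and an adjusted p of 0.054, just beyond the threshold. Sb01g020570, similar to inorganic phosphate transporter 2, had 10.6 and 12.0 at 2 h, against 4.14 and 4.96 at 0 h (log2 change 1.32, SE 0.23, adjusted p = 0.027). Of 12 aquaporin probes 0 were called, too few probes to tell this from the shares of all probes (1.08% higher, 1.61% lower). The 6 for PIP2 water channels had similar negative values in each pair, from -1.27 to -0.899 in pair I and from -0.995 to -0.651 in pair II. The smallest adjusted p among them was 0.18 with limma. These 6 loci lie close together on chromosome 2 and were grouped after their values were seen.

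**Figure D4:**
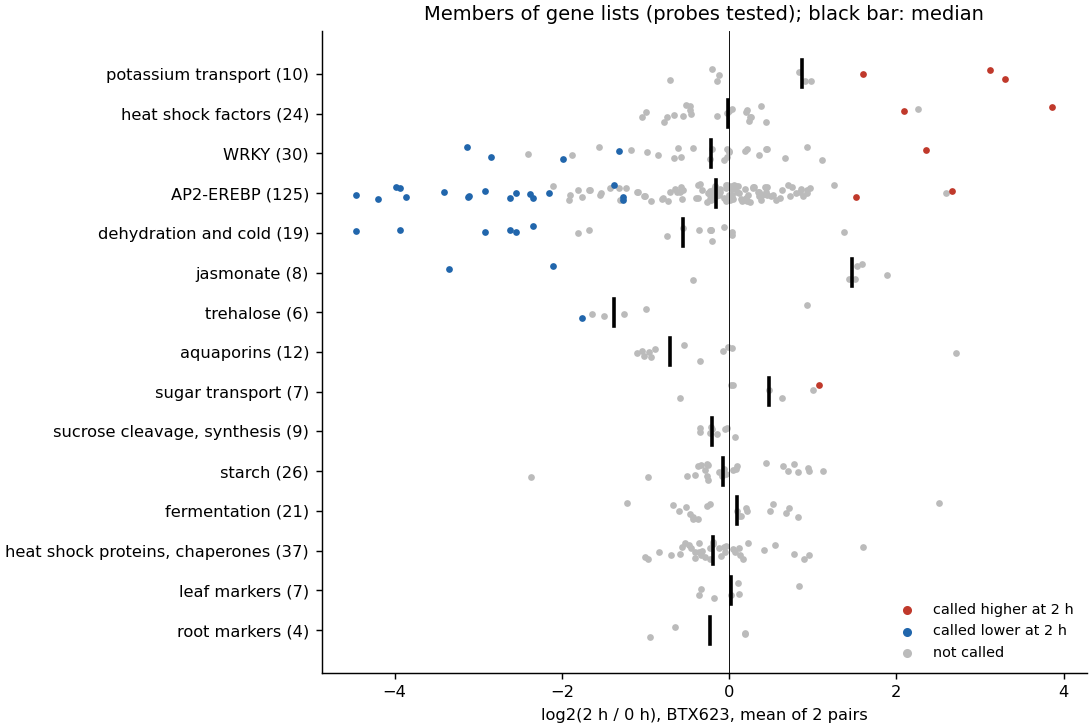
Log2 change, 2 h over 0 h, in BTX623 for the tested members of 15 gene lists (numbers of probes in parentheses); red points were called higher, blue points lower, grey points were not called, and black bars are the medians. The calls of the AP2-EREBP list lie mostly below 0 (17 lower, 2 higher), those of the potassium transport list all above 0 (3 higher), and the lists from starch to the root markers hold 0 calls, and HSF loci are left out of the heat shock proteins.

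Some of the largest falls were those of loci outside these families. Sb01g013740, similar to a patatin-like phospholipase, an enzyme type that releases fatty acids from lipids, had 0.257 and 0.580 at 2 h, against 4.94 and 6.27 at 0 h (log2 change -3.85, SE 0.39, adjusted p = 0.0056). Sb01g013790, with the same annotation and near it on chromosome 1, fell by a similar amount, -3.70 (SE 0.47). Without annotation, Sb07g019930 had 0.0550 and 0.119 at 2 h, against 1.52 and 1.77 at 0 h (log2 change -4.34, SE 0.39, adjusted p = 0.0042). Sb09g003470 changed by -4.13 (SE 0.66) and Sb10g025730 by -3.85 (SE 0.67). Sb04g023155 had 0.0627 and 0.994 at 2 h, against 6.05 and 4.86 at 0 h. Its change, -4.44, was the least certain of these (SE 0.94, adjusted p = 0.049), since it was -6.59 in pair I and -2.29 in pair II.

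Called loci had a called neighbour on the chromosome more often than tested loci in general, though most had none. Of the 265 loci called higher, 22 (8.30%) had the next or the previous locus on the array called higher too, compared with 1.65% of all 25228 loci tested. For the 420 loci called lower the number was 35 (8.33%), compared with 2.56% of all. Most runs were pairs, and the longest was the row of 5 DREB/CBF loci. These shares describe the arrangement only, as the members of such rows can be similar in sequence.

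The called probes were then followed in Keller, on 4 arrays that are separate from those of BTX623 and on which both arrays of a pair shared a slide. They enter the fit that gave the calls through the estimate of the spread and of the repeat effect. Of the 319 probes called higher in BTX623, 317 (99.4%) were higher at 2 h in Keller too, 314 of them in both pairs, compared with 50.9% of all probes tested being higher. In Keller 165 of the 319 were called (51.7%), compared with 0.864% of all probes. Of the 475 probes called lower, 471 (99.2%) were lower in Keller, 465 in both pairs, and 231 were called (48.6%, compared with 0.962% of all). The median change of the probes called higher was 1.51 in BTX623 and 1.36 in Keller, and that of the probes called lower -1.75 and -1.41, where the BTX623 values are the ones on which the probes were chosen. In Keller, 255 probes were called higher and 284 lower in total.

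**Figure D5:**
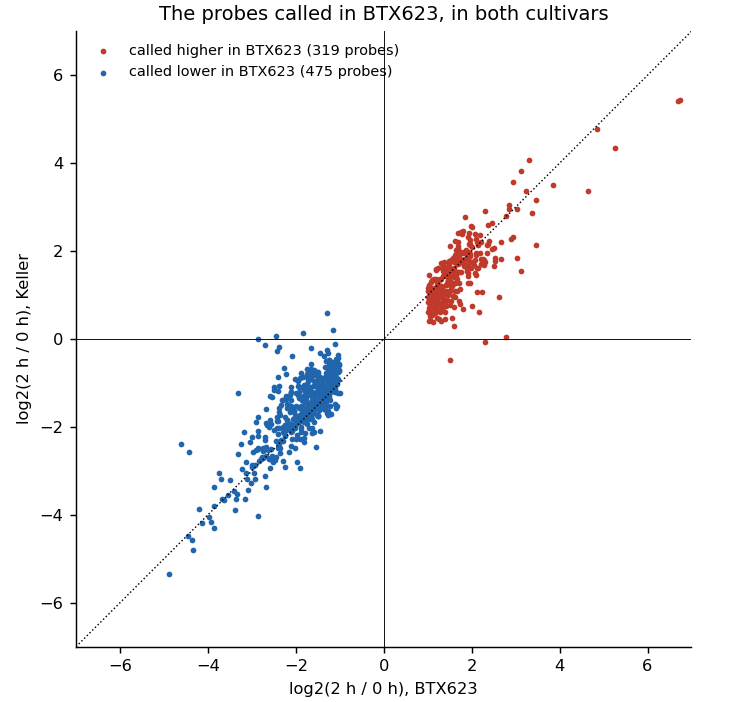
Log2 change, 2 h over 0 h, in BTX623 (x axis) and Keller (y axis) for the 319 probes called higher (red) and the 475 called lower (blue) in BTX623; the dotted line marks equal change. Nearly all points lie where both cultivars have the same sign, 317 of the 319 and 471 of the 475.

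No probe passed the threshold for a 2 h change that differed between the cultivars (0 called with limma), and the smallest adjusted p was 0.464. Of the 29515 probes tested, 521 had an unadjusted p below 0.05 with limma, a share below 0.05 itself, and 344 of these also reached 2-fold. For Sb02g030300 the difference of the changes, BTX623 minus Keller, had a 95% interval from -1.05 to 1.52, and for Sb10g022340 one from -1.27 to 1.97 on the log2 scale. For Sb03g044790 the interval was -1.50 to -0.05, as the change was 3.30 in BTX623 and 4.08 in Keller, where the relative signal was 1.08 and 0.901 at 2 h, against 0.0514 and 0.0661 at 0 h.

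A few called probes were far apart between the cultivars without passing that test, and they were picked after the values were seen. Sb09g001740 had 1.14 and 0.993 at 2 h and 0.172 and 0.138 at 0 h in BTX623, but in Keller it was not well above background on any of the 4 arrays. Its change in Keller, 0.04, was thus between background signals, and the difference that follows does not compare 2 measured responses. The difference of its changes was 2.74 (95% interval 1.51 to 3.98, unadjusted p = 0.00089 and adjusted p = 1 with limma). Sb02g033820 had 0.833 on the only 2 h array measured in BTX623, as its spot of repeat II was an outlier and was left out, against 5.38 and 6.42 at 0 h. In Keller the same probe had 7.29 and 6.43 at 2 h, against 7.34 and 6.46 at 0 h. The difference, -2.84, had the smallest unadjusted p of all probes (1.57e-05, adjusted p = 0.464).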

How the data were processed

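Total RNA of whole seedlings was labelled with Cy3 and hybridised to 12 one-colour Agilent arrays. The deposited intensity values are the processed signals of each spot, background-subtracted by the authors with Feature Extraction and not normalized between arrays; a deposited matrix held the same values. Here outlier spots were left out, each probe was read from a single spot per array, and log2 values were reduced by the log2 of the 75th percentile of each array. limma 3.58.1 (R 4.3.3) was fitted over the 12 arrays with 6 group means, the repeat number as a block and a variance trend. SE and adjusted p come from this fit, with n = 2 arrays per group, and the number of arrays limits the precision. The p-values measure the spread that was left over the 12 arrays once the difference between the repeats was taken out. They cover these plantings only. Same-numbered arrays deviated together in all 15 pairs of groups (correlation 0.294 to 0.699), and the methods give repeats as separate plantings.

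Members, lists and tests were chosen with earlier results of these data known. Loci were named by size of change among the called (10 in each direction with no overlap of the groups and well above background on all 4 arrays, up to 5 with a bound, up to 4 of each list), with exceptions given. Lists come from annotation words and the study's gene lists; that of transcription factors was used in part. Annotation covered 9314 loci. Alternatives covered blocks, arrays fitted, background (normexp on median signals, with an offset of 50), scaling, filters and thresholds. The script was tested on simulated data. Array probe sequences were not used here.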

Additional observations from a re-analysis of the deposited data

How the results depend on the processing

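The probes called at 2 h in BTX623 numbered 319 higher and 475 lower. With no replicate block, 21 were higher and 37 lower, so most calls rest on the pairing, and with the slide as a block in its place 116 and 189. Fits of only the 4 arrays compared, with or without the block, of the 6 BTX623 arrays, and with slide and repeat number as blocks (added after the data were seen) called 0 in each direction. In these 4 fits, which have fewer residual degrees of freedom, 2554, 1787, 2364 and 2274 probes had an unadjusted p below 0.05 with 2-fold or more, and the smallest adjusted p was 0.0986, 0.467, 0.0757 and 0.0921. An adjusted p under 0.01 left 42 higher and 82 lower, a 4-fold minimum 67 and 173, and 2-fold in both pairs with no test gave 494 and 913. Without scaling there were 382 higher and 215 lower (64.0% of the calls higher, against 40.2%), as the median of all probes shifted by 0.32. Normexp on median signals, chosen after the data were seen, gave 217 and 411.

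Leaving out each array gave 12 to 274 higher and 24 to 383 lower. The counts higher and lower were 12 and 24 without repeat I and 39 and 157 without repeat II of BTX623 at 2 h, 162 and 194 without repeat I and 84 and 121 without repeat II of BTX623 at 0 h, and 174 and 260 without either Keller array at 2 h. Without a BTX623 array at 6 h 202 were higher. Probes that differed between cultivars numbered 0 in all fits that held Keller arrays but the one without repeat II of BTX623 at 2 h, where they were 8.

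The log2 changes of the 69 loci followed kept their sign in every fit that gave a value. Of the 69, 14 were called without the replicate block. With each array left out in turn, 15 were called in every fit that gave a value, among them Sb03g044790, Sb03g038210, Sb02g030310 and Sb02g040060. Sb02g033820 is counted in the 15 on 11 such fits, as it had no value without its only measured BTX623 array at 2 h. The counts of the gene lists were taken under other scalings after the data were seen, and the DREB, CBF or DRE binding probes had 6 lower and 1 higher of 14 in each.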
